A study of Mus musculus with 5 samples.

Results

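The genes described here are 31 genes of lipid synthesis, 21 that make, sense or carry sterols and 10 that make, elongate or desaturate fatty acids. They were taken by name: every probe other than a control whose gene name in the array files was one of the 31 symbols was used, which gave 46 probes. All 31 genes were found, of 21727 genes that could be named on the array and 16083 that were bright enough to be tested. Each was well above background on all 5 arrays, so no member was lost to the filter on dim probes, and none was saturated.

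Each mouse RNA sample was hybridised to its own array, read in a single colour. The groups were MEF (mouse embryonic fibroblasts, 1 array), ciNPC (neural progenitor cells induced chemically, at passage 5 on 1 array and at passage 13 on 2 arrays, here p5 and p13) and NPC (progenitors derived from brain, the study's control, 1 array). According to the study's title the induced cells were obtained with chemical cocktails and hypoxia, and its stated purpose was to establish what these cells are by comparing their expression with MEF and NPC. The labels describe the samples as primary cells and give no strain, embryonic age, compound, oxygen level or culture medium, so these are not described here. Whether the induced cells were of 1 line, and whether the pair of p13 arrays stand for separate cultures, is likewise not given, so the p-values below reflect the spread among these arrays alone, which may be technical.

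The MEF and NPC arrays lay on slide 1 and the 3 ciNPC arrays on slide 2. Where ciNPC is set against MEF or NPC, cell type and slide therefore cannot be told apart. The arrays of NPC and MEF can be compared within a slide, and so can those of p13 and p5. Between 47.9% and 57.6% of spots were well above background, and the number of arrays limits the precision. The spike-in controls had a slope of 0.803 on ciNPC p13 replicate 2 and of 0.915 to 0.987 on the other arrays. Levels are log2 intensities from which the 75th percentile of each array was subtracted, so that 0 is the level of that percentile, and the levels of different genes come from different probes and are not compared. Fibroblast markers were above background on 8 of 8 probes in MEF and in each ciNPC array, and on 4 of 8 in NPC, and neural progenitor markers on 8 of 8 in each ciNPC array and in NPC, and on 5 of 8 in MEF. In such bulk samples, fewer cells of a type and less RNA per cell cannot be told apart.

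Cholesterol is built from acetyl-CoA through mevalonate, isoprenoids, squalene and lanosterol, and fatty acids are built from the same precursor through malonyl-CoA, after which they are elongated and desaturated. Both routes are controlled by the SREBP transcription factors, which Insig proteins hold in the endoplasmic reticulum when sterols are abundant and which enter the nucleus after cleavage when sterols are scarce. The brain makes its own cholesterol, since lipoproteins of the blood do not cross the barrier around it, and neural stem cells are known to need fatty acid synthase to proliferate.

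Promoter sequence of RefSeq (assembly GRCm38.p6, 250 bases before to 50 bases after each annotated start) was available for 24 of the 31 genes; it was not used here for Fdft1, Fdps, Sqle, Stard4, Scd1, Scd2 and Fads1. Motifs were searched as letters on both strands. The sterol regulatory element, to which SREBP binds, was searched as TCACNCCAC. The NF-Y site that often lies near such an element was searched as CCAAT, which is read as ATTGG when it lies on the opposite strand. The GC box was searched as GGGCGG, read as CCGCCC on the opposite strand. The E-box was searched as CACGTG, which reads the same on both strands. In the stretches printed here no match overlaps another. CCAAT was present in 20 of 24 genes (83.3%), against 41.1% of all 27025 genes of the table and 42.3% of its 17492 protein-coding genes. GGGCGG was present in 20 of 24 genes (83.3%) as well, against 38.2% and 49.2%. CACGTG was found in Dhcr7, Hsd17b7, Insig1 and Sc5d (16.7%, against 8.09% and 8.91%), and TCACNCCAC only in Hmgcs1 (4.17%, against 1.44% and 1.41%), where it begins 137 bases before the start. A match is a description of the letters, not a site in use.

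The 150 bases before the start are shown for the 4 sterol genes with the largest differences from MEF, for the fatty acid gene with the largest difference and for Me1, the only member that fell. Capitals mark the motifs above, and each line reads 5′ to 3′ on the strand of the gene. Where a gene had several starts (3 windows for Dhcr7 and 2 for Me1), the one with the most matches is shown. The stretches lie at chr7:143830064-143830213 (+) for Dhcr7, chr13:8885456-8885605 (+) for Idi1, chrX:72918371-72918520 (+) for Nsdhl, chr13:119690201-119690350 (+) for Hmgcs1, chr3:129532236-129532385 (+) for Elovl6 and chr9:86695915-86696064 (-) for Me1.
Dhcr7: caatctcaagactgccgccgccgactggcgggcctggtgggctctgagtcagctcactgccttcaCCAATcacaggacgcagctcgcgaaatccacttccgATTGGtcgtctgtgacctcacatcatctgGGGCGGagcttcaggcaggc
Idi1: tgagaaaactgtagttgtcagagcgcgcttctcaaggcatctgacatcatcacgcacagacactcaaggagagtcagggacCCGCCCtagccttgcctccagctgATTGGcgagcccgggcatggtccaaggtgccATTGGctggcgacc
Nsdhl: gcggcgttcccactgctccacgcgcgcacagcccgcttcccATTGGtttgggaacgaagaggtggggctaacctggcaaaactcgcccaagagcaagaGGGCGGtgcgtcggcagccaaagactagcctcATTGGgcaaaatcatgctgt
Hmgcs1: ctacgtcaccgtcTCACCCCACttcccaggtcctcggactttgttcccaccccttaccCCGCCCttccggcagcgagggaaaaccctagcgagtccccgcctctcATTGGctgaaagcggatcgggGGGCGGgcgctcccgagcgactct
Elovl6: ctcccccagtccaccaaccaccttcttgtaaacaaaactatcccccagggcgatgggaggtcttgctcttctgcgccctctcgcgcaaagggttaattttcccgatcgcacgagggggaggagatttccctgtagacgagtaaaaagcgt
Me1: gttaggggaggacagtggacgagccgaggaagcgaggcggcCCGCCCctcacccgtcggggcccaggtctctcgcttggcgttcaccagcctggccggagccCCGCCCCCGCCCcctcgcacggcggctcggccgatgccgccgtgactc
The stretches of Dhcr7, Idi1 and Nsdhl each hold 2 matches of CCAAT and 1 of GGGCGG. That of Hmgcs1 holds 1 match of TCACNCCAC, 1 of CCAAT and 2 of GGGCGG. The stretch of Me1 holds 3 matches of GGGCGG, of which a pair adjoin, and that of Elovl6 none of the 4 motifs.

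The first comparison set the 3 ciNPC arrays against MEF. Of the 31 genes, 14 (45.2%) were higher in ciNPC and 1 (3.23%) was lower, at a Benjamini-Hochberg adjusted p under 0.05 in limma and at least a 2-fold difference; over all genes tested, 15.6% were higher and 15.1% lower (30.7% in either direction). Among the sterol genes 9 of 21 rose and 0 fell, with a median log2 difference of 0.72. Among the fatty acid genes 5 of 10 rose and 1 fell, with a median of 0.76, while the median over all genes was -0.08. MEF lay below all 3 ciNPC arrays for 24 of the 31 genes, which was so for 39.8% of all genes. The members were chosen with earlier results of these data known. Their shares beside those of all genes, here and below, are therefore a description only.

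The genes that rose were spread along the sterol route, with the largest differences at single steps and smaller ones between them. In the mevalonate segment 2 of 7 genes rose. Hmgcs1, the HMG-CoA synthase, had a level of 4.92 in MEF, 6.47 in ciNPC p5, 6.69 and 6.64 in ciNPC p13 and 7.15 in NPC. It rose by 1.68 on the log2 scale in ciNPC over MEF (3.21-fold, SE 0.14, limma adjusted p = 0.000109). Idi1, which interconverts the isoprenoid building blocks, had levels of 2.29 in MEF, 4.58 in p5, 4.77 and 4.72 in p13 and 5.15 in NPC, and rose by 2.40 (5.28-fold, SE 0.14, limma adjusted p = 2.89e-05). For both genes every ciNPC array lay above MEF and below NPC.

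The other mevalonate genes did not pass. Pmvk, which phosphorylates mevalonate phosphate, was at 3.74 in MEF and at 4.68 ± 0.13 in ciNPC (SD, n = 3), a difference of 0.94 that missed the 2-fold limit (limma adjusted p = 0.00191) and reached it under other scalings, at 1.15 after quantile normalisation and 1.08 with the percentile taken over probes above background on all arrays. Acat2, which joins acetyl-CoA units at the head of the route, Mvk and Mvd, which act on mevalonate and its diphosphate, and Fdps, which makes farnesyl diphosphate, differed by 0.11 to 0.38. The MEF array lay inside the range of the ciNPC arrays for Acat2 and Mvd.

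From squalene to lanosterol, 1 of 3 genes rose. Sqle, the squalene epoxidase and a slow step of the route, had levels of 4.17 in MEF, 5.50 in p5, 5.81 and 5.76 in p13 and 5.99 in NPC, a rise of 1.52 (2.86-fold, SE 0.16, limma adjusted p = 0.000324). Fdft1, which makes squalene, and Lss, which closes it into lanosterol, differed by 0.58 and 0.68; their adjusted p-values were 0.0184 and 0.0443 in limma, and both stayed under 2-fold.

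The conversion of lanosterol to cholesterol held 5 of the genes that rose, out of 8. Dhcr7, which catalyses the last reduction to cholesterol and is the gene mutated in Smith-Lemli-Opitz syndrome, had levels of -0.21 in MEF, 2.42 in p5, 2.58 and 2.33 in p13 and 2.98 in NPC. Its rise of 2.65 over MEF (6.28-fold, SE 0.17, limma adjusted p = 4.42e-05) was the largest of the 31 genes, and no ciNPC array came within 2-fold of MEF. Its probe lies at chr7:151033874-151033933 (+) on mm9.

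Nsdhl, which works with Sc4mol to remove methyl groups from the sterol ring, was at -0.48 in MEF, 1.07 in p5, 1.37 and 1.26 in p13 and 2.16 in NPC. It rose by 1.71 (3.27-fold, SE 0.20, limma adjusted p = 0.000484). Cyp51, the lanosterol demethylase, was at 0.23 in MEF, 1.87 in p5, 2.01 and 1.81 in p13 and 2.27 in NPC, and rose by 1.67 (3.18-fold, limma adjusted p = 0.000297). In both, the ciNPC arrays formed a narrow band above MEF, and NPC lay above the band.

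Sc4mol, the sterol methyl oxidase now named Msmo1, rose by 1.23 (limma adjusted p = 0.000609), from 4.55 in MEF to 5.62, 5.91 and 5.81 in ciNPC, and was at 6.33 in NPC. Tm7sf2, a sterol reductase, rose by 1.24 (limma adjusted p = 0.00313), from 1.73 in MEF to 2.69 in p5 and 3.23 and 2.99 in p13, and was at 3.69 in NPC. The p5 array was the nearest to MEF of the ciNPC arrays for both genes.

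Hsd17b7 and Ebp, the ketosteroid reductase and the sterol isomerase of the same segment, differed from MEF by -0.06 and -0.09, and the sign of these differences turned under other scalings. Ebp spanned only 4.40 to 4.60 over all 5 arrays. Sc5d, the sterol desaturase that acts just before Dhcr7, was at 2.08 in MEF and at 2.77, 2.61 and 2.42 in ciNPC, a difference of 0.52 (limma adjusted p = 0.0487) under the 2-fold limit. The segment thus held the gene with the largest difference and a gene with almost none.

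Of the genes of sterol control and transport, Insig1 rose. Insig1, which retains the SREBP complex in the endoplasmic reticulum and is itself a target of SREBP, had levels of 0.25 in MEF, 1.23 in p5, 1.93 and 1.88 in p13 and 1.98 in NPC. Its rise of 1.43 (2.69-fold, SE 0.29, limma adjusted p = 0.00622) passed in every alternative except the fit without an intensity trend (adjusted p = 0.056). Stard4, which carries cholesterol between membranes, differed by 0.72 (adjusted p = 0.00621 in limma, under 2-fold). Srebf2, which encodes the SREBP of the sterol route, was at 1.39 in MEF, 1.00 in p5, 1.04 and 0.98 in p13 and 1.60 in NPC, a difference of -0.39 from MEF (limma adjusted p = 0.0995). On this probe all 3 ciNPC arrays lay below both MEF and NPC. A dimmer Srebf2 probe was at -2.75 in MEF, -2.86 in p5, -2.36 and -2.30 in p13 and -1.56 in NPC, with both p13 arrays above MEF. With the probes used, the ciNPC mean was below both MEF and NPC for Srebf2, Ebp and Hsd17b7, 3 of the 21 sterol genes, and for 26.3% of all genes.

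**Figure D1:**
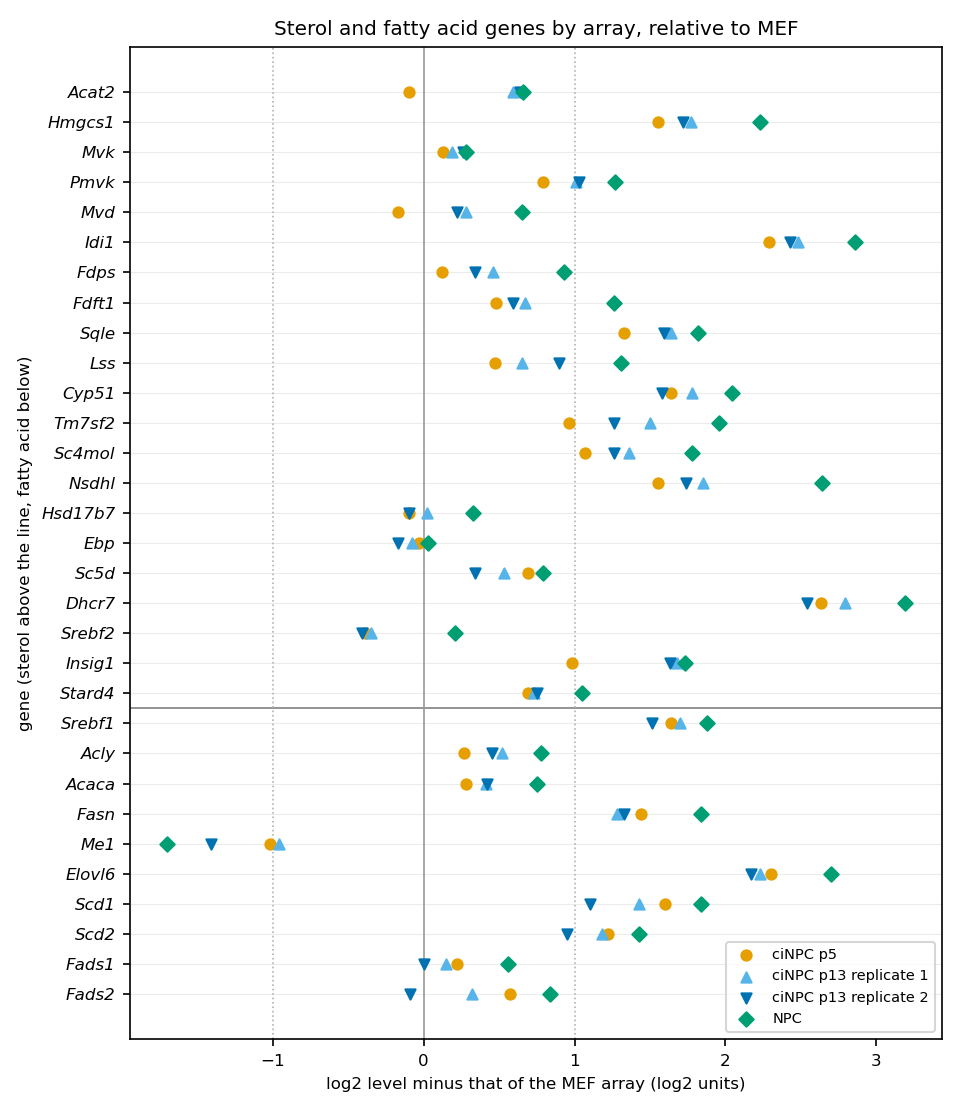
Level of each of the 31 genes on the ciNPC and NPC arrays minus its level on the MEF array (log2 units; circle, ciNPC p5; triangles, ciNPC p13; diamond, NPC; dotted lines, 2-fold). Dhcr7, Idi1 and Elovl6 stand farthest to the right, Me1 stands farthest to the left, some ciNPC points of Srebf2, Ebp and other genes also lie left of 0, and the NPC diamond lies beyond the ciNPC points for nearly every gene.

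On the fatty acid side, Srebf1, which encodes the SREBP of fatty acid synthesis, rose. It was at -0.91 in MEF, 0.73 in p5, 0.79 and 0.60 in p13 and 0.97 in NPC, and rose by 1.62 (3.06-fold, SE 0.20, limma adjusted p = 0.000672). All 3 ciNPC arrays lay nearer to NPC than to MEF.

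Of the genes of fatty acid synthesis itself, 1 rose and 1 fell. Fasn, the fatty acid synthase, had levels of -0.22 in MEF, 1.22 in p5, 1.06 and 1.11 in p13 and 1.62 in NPC, a rise of 1.35 (2.55-fold, SE 0.18, limma adjusted p = 0.000991). Acly, which makes cytosolic acetyl-CoA from citrate, and Acaca, the carboxylase that makes malonyl-CoA, differed by 0.41 and 0.37 (limma adjusted p = 0.0477 and 0.0527), both under 2-fold. Me1, the malic enzyme that supplies NADPH for lipid synthesis, was at 4.77 in MEF, 3.75 in p5, 3.81 and 3.36 in p13 and 3.07 in NPC, and fell by 1.13 (SE 0.20, limma adjusted p = 0.00315). Its fall was close to the 2-fold limit: it was -0.92 after quantile normalisation, -0.99 with the percentile over probes above background on all arrays and -0.99 without ciNPC p13 replicate 2, and then no longer passed. A pair of further Me1 probes differed by -1.61 and -1.20, and in all 3 probes MEF was the highest array and NPC the lowest.

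Elongation and desaturation held 3 of the genes that rose, out of 5. Elovl6, which elongates palmitate to stearate, had levels of 1.88 in MEF, 4.18 in p5, 4.11 and 4.05 in p13 and 4.58 in NPC. It rose by 2.23 (4.70-fold, SE 0.13, limma adjusted p = 3.55e-05), the third largest difference of the 31 genes.

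The stearoyl-CoA desaturases, which make oleate, rose as well. Scd1 was at 1.43 in MEF, 3.03 in p5, 2.86 and 2.53 in p13 and 3.27 in NPC, a rise of 1.37 (2.59-fold, SE 0.21, limma adjusted p = 0.00175). Scd2, the form known to prevail in the brain, was at 6.4 in MEF, 7.62 in p5, 7.58 and 7.35 in p13 and 7.83 in NPC, a rise of 1.11 (2.16-fold, SE 0.15, limma adjusted p = 0.000887). In both genes p5 was the highest and p13 replicate 2 the lowest of the ciNPC arrays. Fads1 and Fads2, the desaturases of polyunsaturated fatty acids, differed by 0.13 and 0.27 (limma adjusted p = 0.557 and 0.448), with the MEF level of Fads2 inside the ciNPC range.

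**Figure D2:**
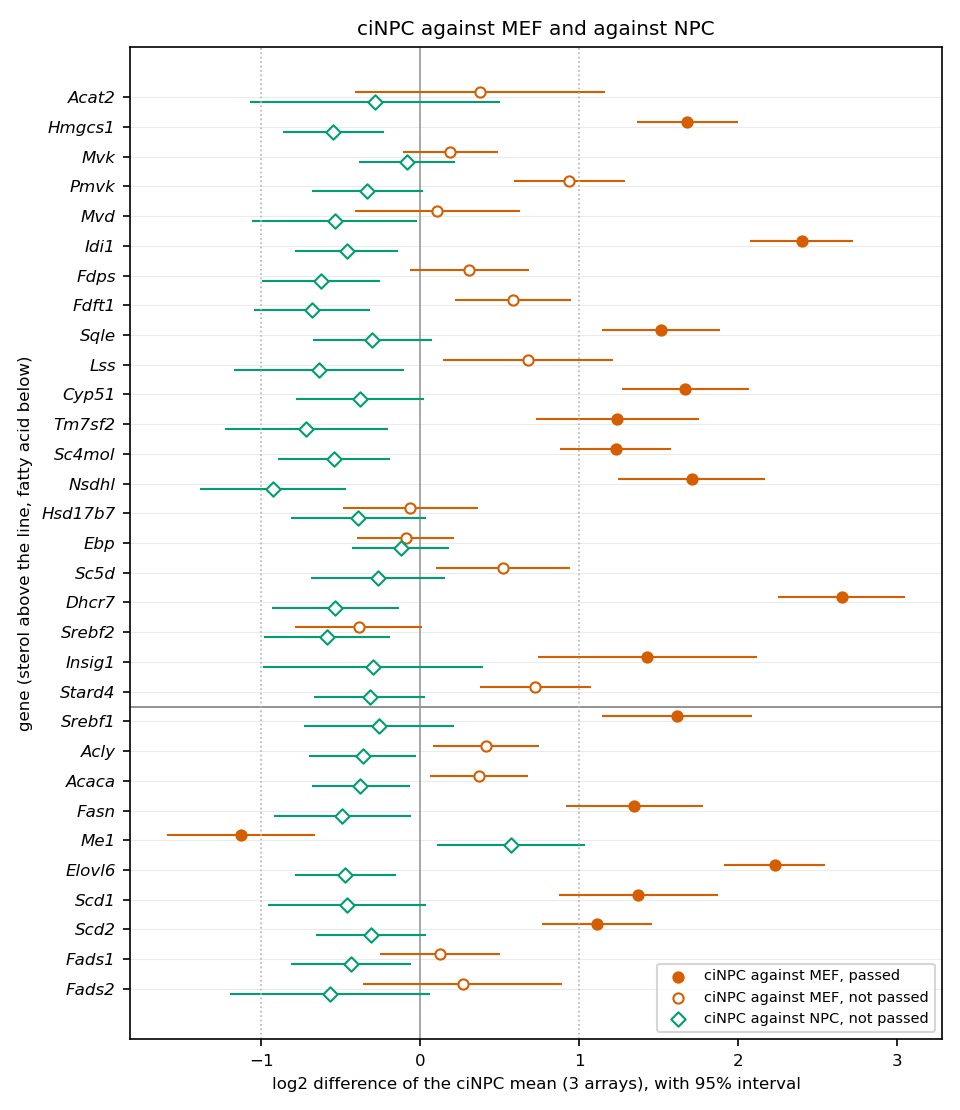
Log2 difference of the ciNPC mean (3 arrays) from MEF (circles) and from NPC (diamonds) for each gene, with 95% intervals from limma; filled symbols passed the adjusted p and the 2-fold limit. The 15 filled circles are the genes that passed against MEF, 14 to the right and Me1 to the left, while no diamond is filled and 30 of 31 lie left of 0.

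NPC against MEF, 1 array each on the same slide, was described without a test. Past a 2-fold difference, 13 of 21 sterol genes were higher in NPC and 0 lower, with a median of 1.27. Of the fatty acid genes, 5 of 10 were higher by as much and 1 lower, with a median of 1.13. Together, 18 of the 31 genes (58.1%) were higher by that measure and 1 (3.23%) lower, against 22.2% and 25.1% of all genes (47.3% in either direction), with a median over all genes of -0.04. The largest differences were those of Dhcr7 at 3.19, Idi1 at 2.86, Elovl6 at 2.70 and Nsdhl at 2.64, and Me1 was at -1.70. Pmvk, Fdft1, Lss and Stard4 differed here by 1.27, 1.27, 1.31 and 1.04, although they did not pass in ciNPC against MEF. With the mean of its probes Fdft1 was at 0.68, under 2-fold, its other probe being at 0.10. That comparison and this one share the MEF array.

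Against NPC, none of the 31 genes passed in either direction in limma, where 4.95% of all genes were higher and 0.0808% lower in ciNPC (5.03% in either direction). At an unadjusted p under 0.05, 17 of the 31 (54.8%) differed, against 16.2% of all genes, and 0 passed under each of the alternatives tried. The sterol genes had a median difference of -0.46, from -0.93 for Nsdhl to -0.09 for Mvk, and the fatty acid genes a median of -0.41. The median over all genes was -0.12. The difference of Nsdhl had a limma adjusted p of 0.0414 and was under 2-fold. Some 95% intervals, not adjusted for the number of genes, lay between 0 and a 2-fold lower level. These included Hmgcs1 (-0.87 to -0.23), Idi1 (-0.79 to -0.14), Dhcr7 (-0.93 to -0.14), Elovl6 (-0.79 to -0.15) and Srebf2 (-0.99 to -0.19). Their limma adjusted p-values were 0.077 to 0.169. Other intervals included 0, such as that of Insig1 (-0.99 to 0.39), or ran past 2-fold, such as that of Nsdhl (-1.39 to -0.465). The lack of calls does not show that the cells are alike in these genes.

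Although single differences were small, their sign was nearly uniform. NPC lay above all 3 ciNPC arrays for 30 of the 31 genes, and Me1 was the exception, with NPC below all of them. Over all genes tested, NPC lay above the 3 ciNPC arrays for 42.1% and below them for 23.8%. The ciNPC mean was below NPC for 30 of the 31 genes (28 to 30 over the alternatives), against 62.8% of all genes and 75.4% of the 8986 genes whose mean level was at least that of the dimmest member. That last background was added after the values were seen. The order of the arrays and the share at an unadjusted p under 0.05 were set against all genes only, dim ones included. Of the other lists, 8 of 8 neural progenitor markers (median -0.36) and 7 of 7 cell cycle genes (median -0.28) were also below NPC, and 0 of either passed. The remaining lists were mixed. Below NPC were 0 of 8 fibroblast markers (median 6.8), 0 of 3 adipocyte markers tested (median 2.25), 4 of 5 astrocyte and 4 of 6 oligodendrocyte markers. Of further pathway genes, 4 of 6 for sterol synthesis and 8 of 11 for SREBP control and uptake were below NPC. So were 4 of 10 for sterol efflux, storage and LXR control (median 0.06), 18 of 22 for fatty acid synthesis and 10 of 13 for fatty acid oxidation. A difference between slides would lie in the same comparison. The part of slide, neural progenitor state and cell cycle in the uniform sign of the members was not tested.

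The third comparison, p13 against p5, lies within 1 slide and asks whether the genes shifted as the induced cells were passaged. None of the 31 genes passed in limma, where 0.404% of all genes were higher and 0.261% lower at p13 (0.665% in either direction), and 10 of the 31 (32.3%) had an unadjusted p under 0.05, against 22.8% of all genes. Insig1 came nearest, at 1.23 in p5 and 1.93 and 1.88 in p13, a difference of 0.68 (SE 0.13, limma adjusted p = 0.0144) under the 2-fold limit. Acat2 was at -0.58 in p5 and 0.11 and 0.16 in p13, a difference of 0.71 (SE 0.19, limma adjusted p = 0.0511). In both, p5 lay well apart from the pair of p13 arrays, which were within 0.05 of each other.

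Most sterol genes lay slightly above p5 and most fatty acid genes slightly below it. Of the sterol genes 19 of 21 were above 0 (15 to 19 over the alternatives), with a median of 0.19, and of the fatty acid genes 8 of 10 were below 0 (6 to 8), with a median of -0.14. All 7 mevalonate genes were above 0 and all 5 genes of elongation and desaturation below 0, and these 2 counts were the same under every alternative, leaving out either p13 array included. For Fads2 this holds with the probe used and with the mean of its probes, while its other probe alone was at 0.06. The p5 array lay below both p13 arrays for 16 of 21 sterol genes and above both for 6 of 10 fatty acid genes, against 35.6% and 43.9% of all genes. Over all genes the median was -0.03, and 46.5% were above 0 and 53.5% below it; among the 8986 brighter genes described above, 36.7% were above 0 and 63.3% below it. The fatty acid median was nearer to 0, at -0.05, after quantile normalisation, in the authors' table and without p13 replicate 2. The difference between the 2 classes was not tested, and with 1 p5 array, passage and that culture cannot be told apart.

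Of the 10 fatty acid genes, 8 lay farther from p5 on p13 replicate 2, the array with the lowest spike-in slope, than on replicate 1. The others were Fasn, at -0.16 on replicate 1 and -0.12 on replicate 2, and Acly, at 0.25 and 0.18. Of the 21 sterol genes, 7 lay farther from p5 on replicate 2 than on replicate 1. Levels were lower on replicate 2 than on replicate 1 in both classes, for 8 of 10 fatty acid genes and 16 of 21 sterol genes. The share over all genes was not counted, either for lying farther from p5 on replicate 2 or for being lower on it. On the probe used, Fads2 was lower than in p5 by 0.25 on replicate 1 and by 0.66 on replicate 2 (difference -0.45, limma adjusted p = 0.139). Its other probe, dimmer but above background on all 5 arrays, showed no such fall. It was at -0.34 in p5 and at -0.21 and -0.35 in p13, a difference of 0.06. Scd1 was lower than in p5 by 0.17 and 0.50 (limma adjusted p = 0.17). Me1 was 0.05 above p5 on replicate 1 and 0.39 below it on replicate 2. The part of the array in these differences was not tested. Over the 31 genes the p13 arrays differed from each other by a median of 0.09, from 0.01 to 0.44 for Me1.

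**Figure D3:**
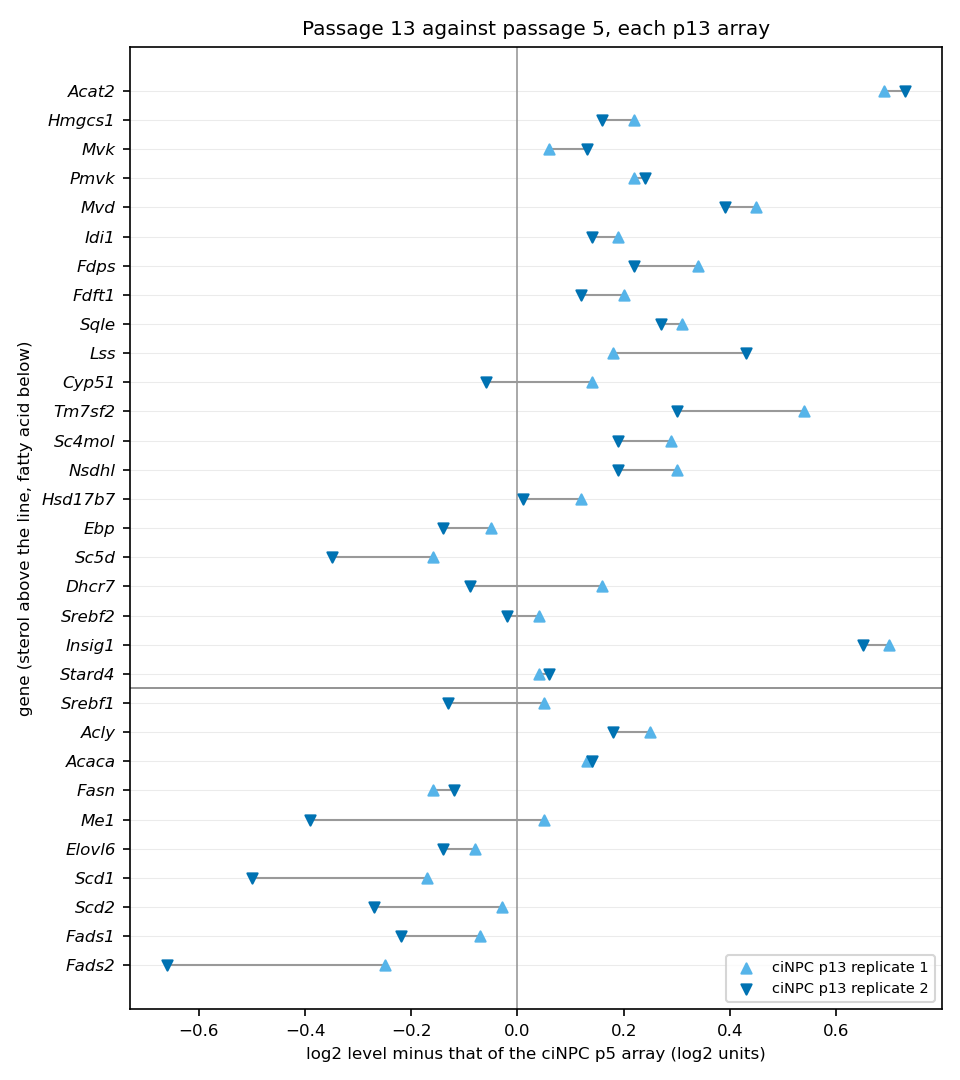
Level of each gene on the 2 ciNPC p13 arrays minus its level on the ciNPC p5 array (log2 units); the grey line joins the 2 arrays. The mevalonate genes at the top lie right of 0 on both arrays, and Elovl6, Scd1, Scd2, Fads1 and Fads2 at the bottom lie left of 0 on both.

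Among other genes of sterol synthesis and handling, none passed as higher in ciNPC than in MEF by the same limma rule. Over all genes 15.6% were higher and 15.1% lower, and with lists this short the counts below are a description only. Of 6 further sterol synthesis genes tested, 0 were higher and 1 was lower, Cyp7b1, an oxysterol hydroxylase, which fell by 1.35. Of 11 genes of SREBP control and sterol uptake, 0 were higher and 3 lower. By sign alone, 4 of the 11 differences from MEF were above 0 and 7 below it. Mylip, the ligase that marks lipoprotein receptors for degradation, was at 0.81 in MEF, -0.43 in p5, -1.49 and -1.61 in p13 and -3.54 in NPC. It fell by 1.99 against MEF (limma adjusted p = 0.0143), was higher than NPC by 2.36 (adjusted p = 0.04) and fell by 1.12 from p5 to p13 (adjusted p = 0.0459). The last of these calls was lost under every one of 9 alternatives that give a test: the difference of Mylip was -0.23 with the mean of its probes (limma adjusted p = 0.915), its adjusted p was 0.505 without an intensity trend, and after normexp it was under 2-fold. On the probe used, the levels of Mylip ran from MEF at the top to NPC at the bottom. Its differences from MEF and NPC given here are those of this probe alone. Npc1, which exports cholesterol from lysosomes, fell by 1.05 against MEF (limma adjusted p = 0.0202).

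Genes of sterol efflux, storage and LXR control showed 0 higher and 3 lower of 10 against MEF, beside 15.6% higher and 15.1% lower over all genes. Soat2, which esterifies cholesterol, was at least 12.1-fold lower, since it was not well above background on any ciNPC array. Abcg1, an exporter of cholesterol, had a difference of -2.40 with 2 of the 5 arrays under background, and Nr1h2, which encodes an LXR, fell by 1.25. Ch25h, which makes an oxysterol, was at least 17.4-fold higher in ciNPC than in NPC, where it was not well above background, and did not pass against MEF (-0.48, limma adjusted p = 0.338).

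Other genes of fatty acid synthesis were 8 higher and 3 lower of 22 against MEF, beside 15.6% and 15.1% of all genes. Elovl2, which elongates polyunsaturated fatty acids, was at 1.62 in p5, 1.52 and 1.5 in p13 and 2.03 in NPC and was not well above background in MEF, so that ciNPC was at least 63.5-fold higher (limma adjusted p = 1.42e-06). Thrsp, a regulator of fatty acid synthesis, was at least 17.7-fold higher on the same ground, and Fads3, a desaturase, fell by 3.05 against MEF and was higher than NPC by 2.06. Of 13 genes of fatty acid oxidation, 2 were higher, Ppargc1a by 5.37 and Acadl by 2.47, and 3 were lower, among them Cpt2 by 1.13. These encode a coactivator of mitochondrial genes, an acyl-CoA dehydrogenase and a carnitine palmitoyltransferase.

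Several markers of growth and of other cell types also differed between ciNPC and MEF, where 15.6% of all genes were higher and 15.1% lower. Of 8 cell cycle genes listed, 7 were bright enough to test and 7 were higher in ciNPC than in MEF (median 1.92), and their summed level, in multiples of the 75th percentile, was 58.5 in MEF, 210 to 223 in ciNPC and 271 in NPC. The remaining one, Aurkb, was under background on every array. Astrocyte markers summed to 3.70 in MEF, 42.4 to 55.9 in ciNPC and 60 in NPC, with 2 of 5 higher in ciNPC than in MEF (Slc1a3 and Aldoc). These were the only ones with a level above 0 in ciNPC, so they carry the sum. The others did not pass: Gfap differed from MEF by 1.12, Aqp4 by -0.97 and S100b by -0.87. Gfap and Aqp4 were not above background on every ciNPC array. Neural progenitor markers summed to 20.9 in MEF, 357 to 433 in ciNPC and 499 in NPC, with 7 of 8 higher in ciNPC than in MEF. The part of these cells or states in the lipid genes was not tested.

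Of 6 adipocyte markers, Adipoq and Plin1 were above background on 1 array and Cidec on none, and the summed level was 2.85 in MEF, 1.07 to 1.42 in ciNPC and 0.313 in NPC. Fabp4, the one of the 3 tested that passed, was lower in ciNPC than in MEF. Against NPC, Pparg was higher by 2.25 (limma adjusted p = 0.00345), and Fabp4, above background on 3 of the 5 arrays, passed as higher too. The summed level of 6 oligodendrocyte markers lay between 1.95 and 2.22 on all 5 arrays, with 1 of 6 (Cldn11) higher in ciNPC than in MEF. Against NPC, 1 of 6 was higher as well, Mbp, by at least 7.24-fold (limma adjusted p = 0.00155). The part of these cell types in the results was not tested. Fibroblast markers summed to 1750 in MEF, 182 to 258 in ciNPC and 0.926 in NPC, and 8 of 8 were higher in ciNPC than in NPC. Over all genes, 4.95% were higher in ciNPC than in NPC.

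The array held more than 1 probe for 12 of the 31 genes, with 15 probes beside those used. Against MEF, 13 of the 15 had the same sign as the probe used and 9 lay within 0.5 log2 of it. The disagreements bear on genes that did not pass: the 4 probes of Acaca gave 0.37, 0.37, 1.51 and 3.01, those of Fads2 0.27 and 1.30, those of Stard4 0.72 and 2.43, and those of Srebf2 -0.39 and 0.24. Fdft1, Tm7sf2, Nsdhl and Me1 had further probes with differences of the same sign as those used. The Acaca probe with the largest difference was above background on 4 of the 5 arrays. It lies at chr11:84211638-84211697 (+) on mm9, and the probe used at chr11:84215093-84215152 (+). Which exons the probes meet was not analysed here.

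**Figure D4:**
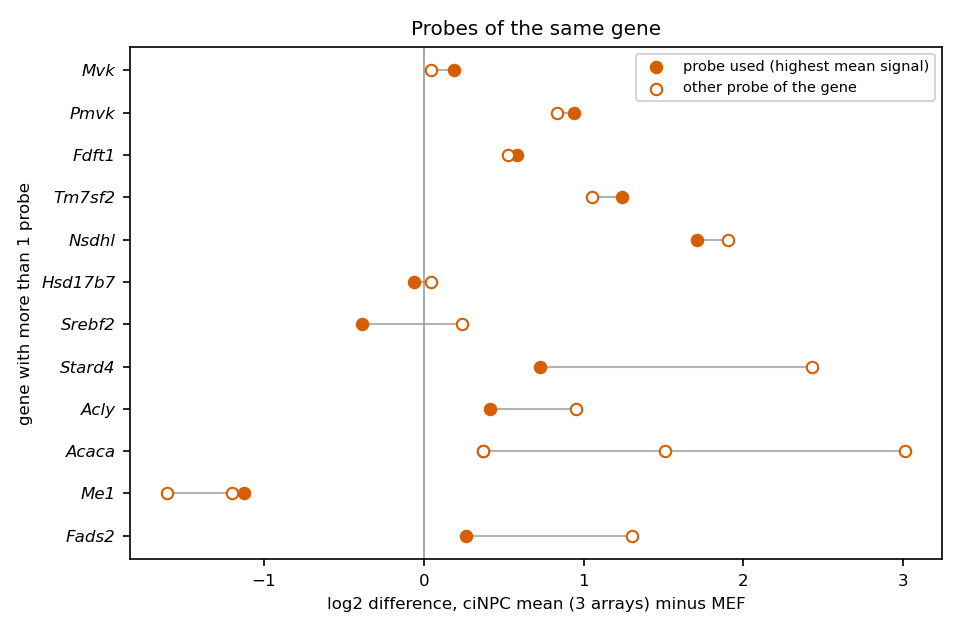
Log2 difference of the ciNPC mean (3 arrays) from MEF for the 12 genes with more than 1 probe (filled, the probe used; open, other probes; the line joins probes of a gene; the probe used for Acaca lies under an open symbol at 0.37). The probes of Acaca, Stard4, Fads2 and Srebf2 are the farthest apart, and those of Me1 all lie left of 0.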

How the data were processed

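Expression was measured on 5 single-colour (Cy3) Agilent arrays. The authors' image software was Agilent Feature Extraction 10.7.1.1, per the submitters' processing notes. Its processed intensity per spot, already background-subtracted, is what the deposited array files hold, and the file headers name mm9 as the build of the array design. A second deposited table gives log2 values per probe, with the same median (5.65) on every array and a correlation of 0.995 to 0.999 with the arrays' own log2 intensities. How the authors scaled them is not given in the sources used here, and the table was used as an alternative.

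The processed intensity was taken to log2, the 75th percentile of each array was subtracted, and the spots of a probe were averaged without those marked as outliers. Members were matched on the gene name of the files, and 44 of their 46 probes also carried an accession of the same gene in the RefSeq table (GRCm38.p6, used for names and promoters only). Other genes were named through that table. A gene was represented by its brightest probe on average. ciNPC against MEF and NPC came from 1 fit of 3 cell types in limma 3.58.1 (R 4.3.3; eBayes with an intensity trend, 2 residual degrees of freedom), and p13 against p5 from a fit of 4 groups with 1, so the lone MEF and NPC arrays are assumed to vary like the ciNPC arrays. Genes passed with an adjusted p (Benjamini-Hochberg, over 16083 genes) under 0.05 and a 2-fold difference, and "rose", "fell", "higher" and "lower" as counts refer to genes that passed. The fit was tested on simulated data. For a gene under background on every array of 1 group, the fold is a lower bound against the lowest signal well above background on that array, or the probe's own signal if higher. All 31 members were named, and of other lists up to 3 genes per comparison with the largest differences that were above background in the group where they were higher; 1 gene that this rule takes is not reported here. The members and lists were chosen with earlier results of these data known. In all, 13 alternative settings were tried: other scalings, background correction, the authors' table, probe averaging, filters, naming, the fit and leaving out each ciNPC array.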

Additional observations from a re-analysis of the deposited data

How the results depend on the processing

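No member that passed took the other sign under any alternative. Members that did not pass did so under at least 1: Hsd17b7 and Ebp against MEF, Mvk and Ebp against NPC, and Fdft1 (from 0.16 to -0.92 with the mean of its probes), Cyp51, Dhcr7, Srebf1, Srebf2, Stard4 and Me1 for p13 against p5. Against MEF, the sterol median of 0.72 was 0.867 with the percentile over probes above background on all arrays, which itself moved the median of all genes from -0.08 to 0.06, and 0.888 with the mean of a gene's probes. The fatty acid median of 0.76 was 1.04 after quantile normalisation and in the authors' table, 0.906 with that percentile and 1.21 with the mean of probes. The 1 fatty acid gene that fell, Me1, became 0 after quantile normalisation, with that percentile, in the authors' table and, over the arrays left out, ranged from 0 to 1. Against NPC the sterol median of -0.46 was -0.335 after quantile normalisation and -0.336 in the authors' table, and the fatty acid median of -0.41 was -0.288, -0.289 and, with that percentile, -0.296. For p13 against p5 the sterol median of 0.19 was 0.266 after quantile normalisation, 0.275 with that percentile, 0.096 after normexp, 0.263 in the authors' table, 0.221 with the mean of probes and 0.165 to 0.198 over the p13 arrays left out. The fatty acid median of -0.14 was -0.052, -0.054 in the authors' table, and -0.179 to -0.053 over the arrays left out. For NPC against MEF the fatty acid median of 1.13 was 1.46 with the mean of probes. Among single genes against MEF, Stard4 at 1.58 and Acaca at 1.31 passed with the mean of probes, and Pmvk passed without p5. With 1 p13 array left out, p13 against p5 is a value without a test. Over all genes, 65 were higher and 42 lower for p13 against p5 (60.7% higher); 109 passed with that percentile, 72.5% of them higher, 2 after quantile normalisation and in the authors' table, 0 without an intensity trend, 57 (47.4% higher) with only genes above background on all 5 arrays, 167 after normexp and 162 with the mean of probes. Against NPC, 809 passed and 442 to 1173 did so over the alternatives. No paired analysis was possible because only the p13 arrays carry replicate numbers. Signal over background limited no member, and the number of arrays limits every comparison.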

Other observations

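Among genes that were higher in NPC than in MEF by 2-fold or more, the ciNPC mean covered a median of 73.9% of the log2 distance for the 13 sterol genes and 78.2% for the 5 fatty acid genes, against 83.8% for all 3569 such genes (quartiles 74.6% to 91.3%). Srebf1 at 86.1%, Idi1 at 83.8% and Sqle at 83.4% covered the most, and Fdft1 at 46.1% and Lss at 51.5% the least. Fdft1 enters through the probe used; with the mean of its probes it was higher in NPC by 0.68, under 2-fold. Insig1 covered 56.6% in p5 and 97.4% and 94.5% in p13. For Me1, lower in NPC, the ciNPC mean covered 66.4% of the distance, beside a median of 65.5% over all 4044 genes at least 2-fold lower in NPC. This measure was chosen after the values were seen and has no test, and the same MEF array stands in both of its terms.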
